A study of Mus musculus with 50 samples.

Results

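Ribosome-bound RNA of dopamine D2 receptor-expressing medium spiny neurons (D2-MSNs) of the nucleus accumbens (NAc) was compared between mice that were susceptible to chronic social defeat stress (CSDS) and unstressed control mice. The members are the immunoprecipitated (IP) libraries labelled D2 Sus, 5 in number, and D2 Con, also 5, and they were taken by those labels, as 10 of the 50 libraries of the series. Every library was made from 2 pooled RT;D2-Cre mice on a C57BL/6 background, aged 8 to 12 weeks. RT (RiboTag) mice make an HA-tagged copy of the ribosomal protein Rpl22 only in cells with Cre, and in this BAC line (ER44) Cre is driven by *Drd2* regulatory sequence. The D2 Sus mice met an aggressive CD1 male daily for up to 10 days (10 min a day in the deposited labels, and a shorter time in the study's methods) and avoided social contact in a test 24 h after the last defeat. The D2 Con mice were housed with mice of their own strain and met no aggressor. D1 Sus and D1 Con IPs from RT;D1-Cre mice, D2 Res IPs (resilient mice, which did not avoid contact after the same defeat) and D2 inputs (RNA of the same kind of homogenate before precipitation) are used below only for comparison. The labels do not say which libraries came from the same CSDS cohort or sequencing run, so p-values measure the spread between these pools.

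D2-MSNs are GABAergic projection neurons that send the indirect pathway of the striatum to the ventral pallidum. They bear the dopamine D2 receptor, an adenosine receptor and the enkephalin precursor, and dopamine lowers their cAMP through the D2 receptor. The NAc joins dopamine signals from the midbrain with glutamatergic input from cortex, hippocampus and amygdala, and it is a region where repeated defeat is known to alter social approach. Cholinergic interneurons of the NAc also express *Drd2*, so an HA pull-down in this line can hold their RNA as well.

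The 10 libraries held from about 21591100 to 31009600 counts on genes. Entries that name no gene took from 18.6% to 28.3% of the reads and were left out. The D2 label held against its markers. *Drd2* stood between 289 and 368 CPM (counts on a gene divided by the normalized library size, scaled to 1e+06) in the 10 libraries and between 76.4 and 119 CPM in the D1 Con and D1 Sus libraries, and *Drd1* stood between 107 and 165 CPM against 277 to 387 CPM. Depth, the share of reads on no feature and the number of genes with a count did not differ at p under 0.05. Between D2 Sus and D2 Con the p-values were 0.36, 0.83 and 0.21 (exact permutation tests, two-sided), where the smallest p that 5 against 5 allows is 0.0079. The number of genes with a count was 131 higher in D2 Sus by mean, with an SD of 76 in D2 Con and 212 in D2 Sus. No pair of replicates was a duplicate, with a chi-square per gene of at least 5.11. Several libraries stood apart. The chi-square was 20.5 between D2 Con 2 and D2 Con 5, and 49.2 to 87.6 between either and D2 Con 1, 3 or 4. Between D2 Sus 5 and the other D2 Sus libraries it was 48.7 to 72.3. D2 Con 2, D2 Con 5 and D2 Sus 5 also had the most reads on entries that name no gene (27.0%, 26.3% and 28.3%). D2 Sus 5 and D2 Sus 1 had the lowest mean correlation with their own group (0.984 and 0.985, where the other 8 libraries had 0.988 to 0.990). Every D2 Sus library correlated more with D2 Con than with its own group (D2 Sus 3, 0.990 against 0.988). Every D2 Con library correlated more with its own group. D2 Sus 1 had the lowest summed level of the 10 cortical and glutamatergic markers (1195 CPM, where the other libraries had 1382 to 1641 CPM), with *Slc17a7*, the vesicular glutamate transporter of cortical neurons, at 13.4 CPM and from 68.3 to 236 CPM elsewhere. Another marker of that list, *Slc17a6*, went the other way, at 23.4 CPM in D2 Sus 1 and from 4.46 to 12.3 CPM elsewhere. The largest parts of the sum in D2 Sus 1 were *Camk2n1* (591 CPM) and *Nrgn* (428 CPM). D2 Sus 1 also had the highest sum of the 10 cholinergic markers (265 CPM, elsewhere 134 to 216 CPM). D2 Con 1 stood apart in its ratio of short to long transcripts, which is described with the genes it touches.

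No gene passed a false discovery rate of 5% between D2 Sus and D2 Con. The genes described from here on were called at an unadjusted p under 0.05, the threshold that the study used for its stress groups. At that threshold 523 of 14224 genes were called (3.68%), 295 higher in Sus (2.07%) and 228 lower (1.6%), whereas the threshold alone passes 711 genes where no gene differs. In the words used here, such a gene rose or fell. With the Benjamini-Hochberg adjustment in edgeR's quasi-likelihood test 0 genes (0%) passed, the smallest adjusted p was 0.33 (*Syk*; 1.00 for every other gene named here), and DESeq2 on the same libraries also found 0, with 525 at an unadjusted p under 0.05. Most differences were small. The called genes over 10 CPM had a median absolute log2 difference of 0.17, and of the 49 that differed by more than 2-fold 46 had a mean under 1 CPM. Of those 49, 41 rose and 8 fell. The direction changed with the level. Under 1 CPM 70 genes rose and 15 fell, from 1 to 10 CPM 109 and 54, and over 10 CPM 116 and 159. The standard error of a log2 difference had a median of 0.07 for genes over 10 CPM, 0.17 from 1 to 10 CPM, and 0.43 under 1 CPM. Without both D2 Sus 1 and D2 Sus 5 the count was 340, of which 205 were among the 523, and without D2 Con 1 it was 373, of which 265 were. Fitted on the 10 D2 Sus and D2 Con libraries alone, it was 378, of which 298 were among the 523.

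**Figure D1:**
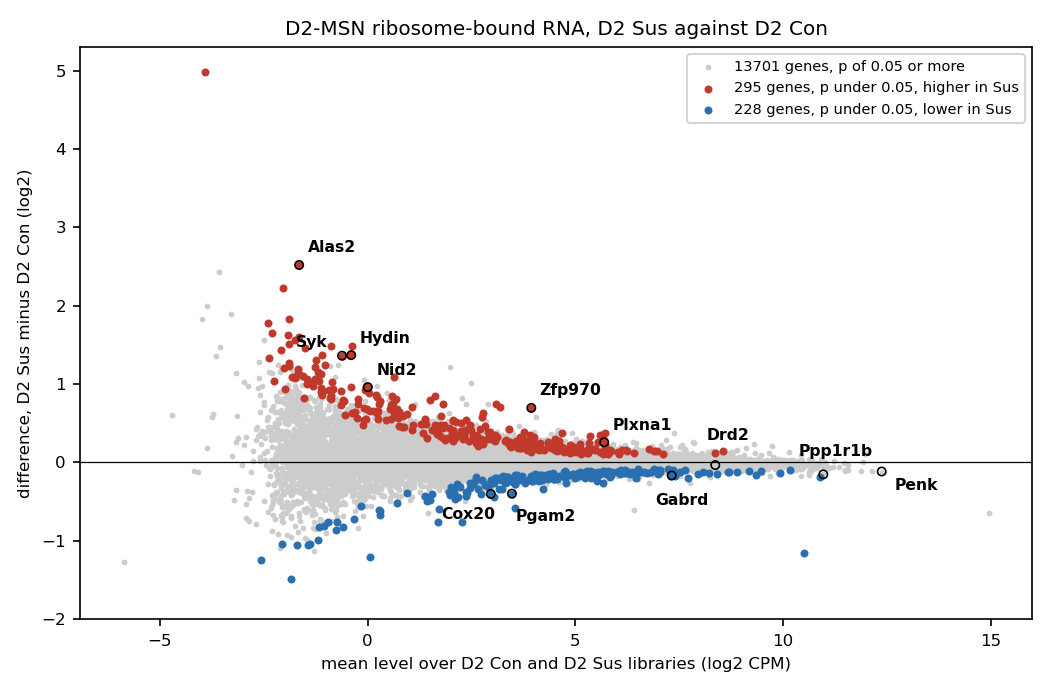
Difference between D2 Sus and D2 Con (log2, vertical) against the mean level over both groups (log2 CPM, horizontal), 1 point per gene tested, red and blue for an unadjusted p under 0.05. Called genes at high levels lie near the zero line, and *Syk*, *Hydin* and *Alas2* lie at low levels with log2 differences of 1.36, 1.37 and 2.52. The topmost point is *Avp*, with 0 counts in every D2 Con library and 16, 1, 3, 0 and 0 in D2 Sus 1 to 5.

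*Syk*, a cytoplasmic tyrosine kinase best known from immune receptor signalling, had the smallest p. Its level was 0.48, 0.34, 0.38, 0.42 and 0.19 CPM in D2 Con 1 to 5, and 1.03, 1.21, 0.64, 0.90 and 0.95 CPM in D2 Sus 1 to 5. Every D2 Sus library lay above every D2 Con library, at a level that amounts to at most 32 counts. The log2 difference was 1.36 ± 0.27 (SE; 95% interval 0.81 to 1.91, adjusted p = 0.33). In the D2 Res libraries *Syk* ran from 0.36 to 0.63 CPM, and in D1 Con from 0.51 to 1.13 CPM. The D1 Con values overlapped those of D2 Sus. In the D2 inputs *Syk* had 3.18 CPM in Con and 2.77 CPM in Sus, with a log2 difference of -0.20 ± 0.35 (SE). Microglia express *Syk*. Of the 9 microglia markers none was called, and their summed level was 26.0 to 30.2 CPM in D2 Con and 24.4 to 33.3 CPM in D2 Sus. The part of microglial RNA in the difference was not tested.

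*Hydin*, which encodes a protein of the central pair of motile cilia, rose from 0.42 to 1.10 CPM by group mean. Its D2 Con values were 0.48, 0.34, 0.45, 0.46 and 0.37 CPM, and its D2 Sus values were 1.03, 0.81, 0.96, 0.94 and 1.77 CPM. The groups did not overlap, and D2 Sus 5 lay far above the other D2 Sus libraries. The log2 difference was 1.37 ± 0.33 (SE). Another cilium gene rose with a smaller difference, *Mks1*, a component of the ciliary transition zone (log2 0.31 ± 0.13, SE), and its call was lost without D2 Sus 3 (log2 0.24). None of the 5 choroid plexus and ependymal markers that could be tested was called, and *Foxj1*, the regulator of motile cilia, ran from 1.62 to 2.89 CPM in D2 Con and from 1.77 to 3.27 CPM in D2 Sus.

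Values of D2 Sus and D2 Con did not overlap in 40 genes that were higher in Sus (0.281% of those tested) and in 32 that were lower (0.225%). Where no gene differs, 5 against 5 exchangeable libraries separate in this way in a share of 0.0079 of genes, counting both directions. The shares found do not exceed it, and nothing is read from these counts. Described here are, in each direction, the 12 of these genes with the smallest p and a mean of at least 1 CPM in a group, *Hydin* and *Mks1* among them. *Nid2*, nidogen 2 of basement membranes, had 0.56, 0.83, 0.75, 0.74 and 0.51 CPM in D2 Con and 0.93, 1.61, 1.32, 1.22 and 1.57 CPM in D2 Sus (log2 0.96 ± 0.30, SE). *Sdk1*, sidekick 1, a homophilic adhesion molecule of synapses, had 6.84, 6.57, 7.29, 8.00 and 8.02 CPM in D2 Con and 9.24, 8.72, 9.99, 9.86 and 9.04 CPM in D2 Sus (log2 0.35 ± 0.12, SE). For both genes the lowest D2 Sus library was above the highest D2 Con library. *Col16a1*, a fibril-associated collagen, ran from 3.04 to 3.78 CPM in D2 Con and from 3.88 to 7.06 CPM in D2 Sus (log2 0.52 ± 0.18, SE), and its call was lost without D2 Sus 2 (log2 0.35).

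*Plxna1*, a semaphorin receptor of growing axons, ran from 45.9 to 50.3 CPM in D2 Con and from 51.6 to 68.1 CPM in D2 Sus (log2 0.26 ± 0.10, SE). The highest of those values, D2 Sus 1, set part of the size, and without it the log2 difference was 0.18 and the call was lost. *Doc2a*, a calcium sensor for spontaneous and asynchronous transmitter release, had 10.5, 7.35, 10.7, 8.46 and 8.07 CPM in D2 Con and 11.6, 12.2, 13.3, 11.1 and 12.4 CPM in D2 Sus (log2 0.42 ± 0.17, SE). The call of *Doc2a* was lost without D2 Con 2 and without D2 Con 5, with a log2 difference of at least 0.35 in every alternative. The others of the 12 were *Zfp229* (log2 0.68) and *Zfp354b* (0.41), which encode zinc-finger proteins, *Ccdc87* (0.49), *Ddah2* (0.89), a relative of the enzyme that degrades methylated arginine, and *Fkbp14* (0.30), a prolyl isomerase of the endoplasmic reticulum. In *Ddah2* the D2 Con libraries were uneven, at 1.03, 1.03 and 1.09 CPM in D2 Con 1 to 3 and 0.11 and 0.37 CPM in D2 Con 4 and 5. Its call was lost without D2 Con 4 and without D2 Con 5 (log2 down to 0.59). That of *Fkbp14* was lost without D2 Con 4, D2 Con 5 or D2 Sus 1 (log2 down to 0.25). Of the 12 that rose, all but *Ccdc87* had a lower mean in the D2 Con IPs than in the D2 Con inputs. Among them were *Nid2* (0.68 against 3.43 CPM), *Col16a1* (3.39 against 27.3 CPM), *Ddah2* (0.73 against 7.88 CPM) and *Hydin* (0.42 against 1.44 CPM). The part of RNA from other cells in these differences was not tested.

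On the lower side, *Cox20*, an assembly factor of cytochrome c oxidase, had 10.0, 8.43, 8.27, 9.09 and 8.72 CPM in D2 Con and 5.86, 6.82, 6.28, 7.58 and 7.18 CPM in D2 Sus (log2 -0.40 ± 0.12, SE, 95% interval -0.65 to -0.16). *Pgam2*, the muscle form of phosphoglycerate mutase, had 12.8, 11.4, 12.1, 13.0 and 13.9 CPM in D2 Con and 6.66, 8.92, 10.3, 11.1 and 11.1 CPM in D2 Sus (log2 -0.40 ± 0.12, SE). All D2 Sus values of both genes lay below all D2 Con values, and D2 Sus 1 was the lowest in each. Also lower without overlap were *Snrnp25*, a protein of the minor spliceosome (log2 -0.40 ± 0.12, SE), *Lsm8*, part of the ring that binds U6 RNA (-0.26 ± 0.10), and *Ccdc12*, a spliceosome-associated protein (-0.21 ± 0.08).

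*Ssr4*, a subunit of the translocon-associated complex of the endoplasmic reticulum, ran from 17.7 to 19.7 CPM in D2 Con and from 15 to 17.3 CPM in D2 Sus (log2 -0.24 ± 0.08, SE). The smallest of these differences was in *Mbd3*, a subunit of the NuRD chromatin complex, at log2 -0.12 ± 0.05 (SE). *Chmp3*, an ESCRT-III subunit of membrane scission, fell by 0.13 ± 0.05 (SE) on the log2 scale from 131 to 148 CPM in D2 Con to 124 to 128 CPM in D2 Sus. In D1 Sus against D1 Con *Chmp3* differed by -0.19 (log2). *Ten1*, of the telomere-binding CST complex (-0.23), *Krt12*, a keratin (-0.44), and the noncoding *1700086O06Rik* (-0.48) and *Gm15867* (-0.63) were the others of the 12. Without D2 Sus 5 the calls of *Mbd3* and *Ten1* were lost (log2 no weaker than -0.07 and -0.18 in any alternative). *Gm15867* is annotated as antisense, and the strand setting of the counting is not stated, so its reads could be those of a gene on the other strand. In all 12 genes of each direction D2 Res differed from D2 Con the same way as D2 Sus. Log2 differences ran from 0.06 (*Sdk1*) to 0.70 (*Nid2*) for those that rose and from -0.32 (*1700086O06Rik*) to -0.03 (*Ccdc12*) for those that fell. That of *Zfp354b* (0.48) was larger than in D2 Sus. Both comparisons share the D2 Con libraries by which the genes were chosen, so this is a description.

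**Figure D2:**
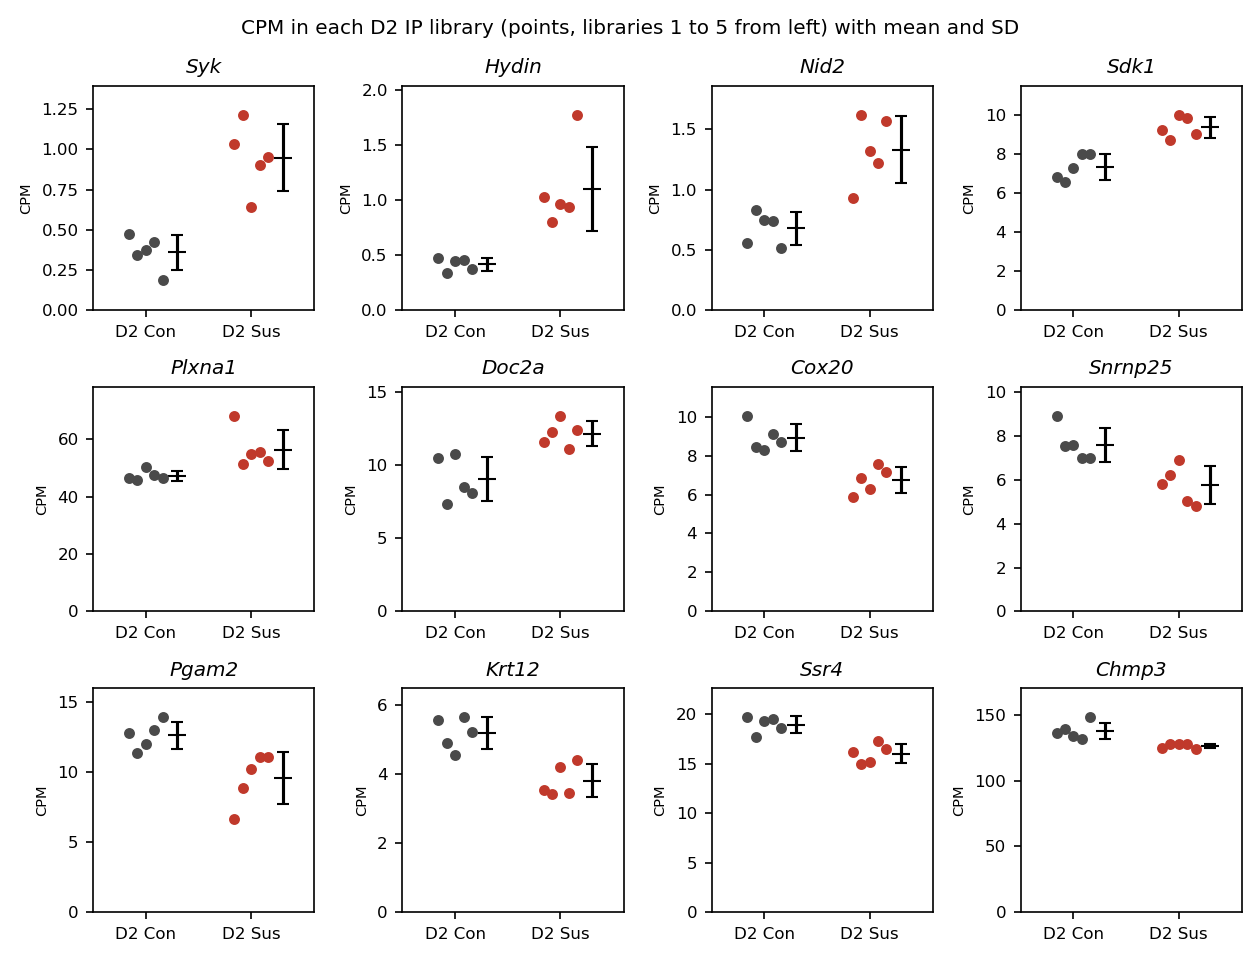
Level in CPM (vertical, from 0) of 12 genes in each D2 Con (dark) and D2 Sus (red) library, libraries 1 to 5 from left to right, with the mean and SD (n = 5) beside them. In the first 6 panels all D2 Sus points lie above all D2 Con points, and in the last 6 they lie below.

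Genes that rose and genes that fell differed in length. The summed exon length had a median of 5.4 kb for those that rose, 2.80 kb for those that fell and 4.53 kb for all genes tested. Among the shortest 20% of genes, up to 2.55 kb, 37 rose and 91 fell, and among the longest 20%, from 7.77 kb, 72 rose and 16 fell. The excess of falls in the shortest class rested on 1 library. Without D2 Con 1 the counts were 43 and 40 in the shortest class and 33 and 16 in the longest, where rises still outnumbered falls. That library stood apart. Its short genes stood 0.26 (log2) above its long genes relative to the mean of the 10 libraries, whereas the same difference was between -0.09 and 0.03 in the other 9 libraries. Without D2 Con 1 the median length was 4.12 kb for genes that rose and 3.35 kb for those that fell, and the median log2 difference of the shortest genes moved from -0.04 to -0.01. Among the genes above, *Cox20*, *Pgam2*, *Snrnp25* and *Gm15867* have 883, 840, 1041 and 388 bp of exon, and *Hydin*, *Sdk1* and *Plxna1* have 18037, 11087 and 9054 bp. *Cox20*, *Pgam2*, *Snrnp25*, *Gm15867*, *Hydin*, *Sdk1* and *Plxna1* were all called without D2 Con 1 too. The part of length in each single call was not tested.

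**Figure D3:**
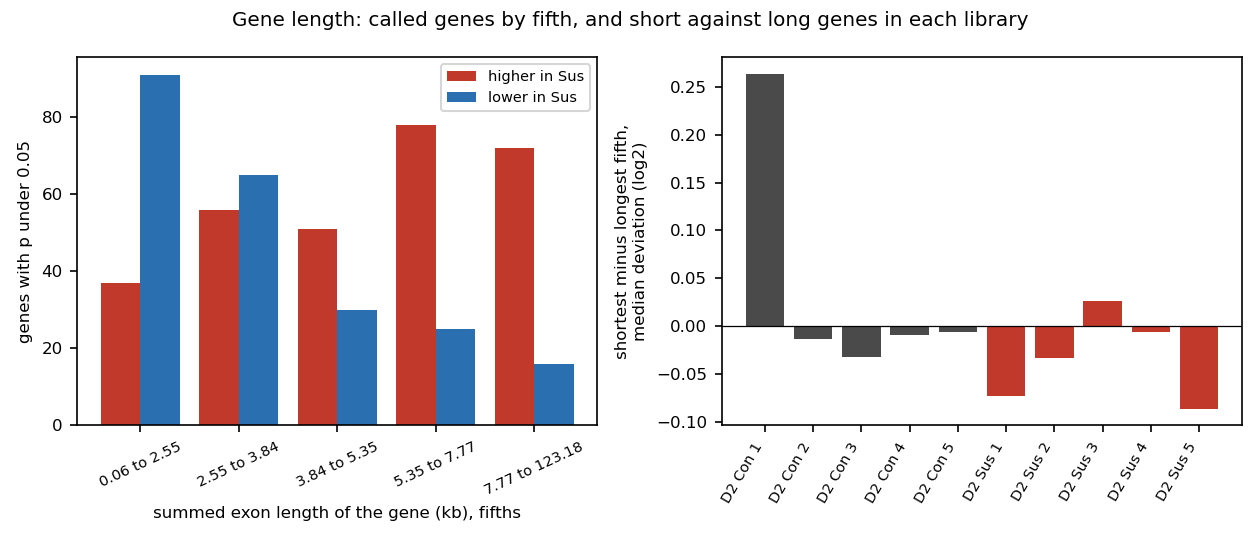
Left, number of genes (vertical) that rose (red) or fell (blue) in each 20% class of summed exon length (kb, horizontal). Right, median log2 deviation of the shortest minus the longest class in each D2 Con (dark) and D2 Sus (red) library. Falls outnumber rises in the shortest class (91 against 37), rises outnumber falls in the longest (72 against 16), and D2 Con 1 stands alone at 0.26. Without D2 Con 1 the counts were 43 rises against 40 falls in the shortest class and 33 against 16 in the longest.

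The genes that identify D2-MSNs were not called with all libraries in the model, and some were under alternatives. *Drd2* had 314, 343, 312, 337 and 368 CPM in D2 Con and 289, 319, 328, 334 and 365 CPM in D2 Sus, with a log2 difference of -0.03 ± 0.08 (SE; 95% interval -0.20 to 0.13). *Adora2a*, the adenosine receptor of these neurons, had 882, 941, 810, 830 and 928 CPM in D2 Con and 699, 788, 768, 828 and 812 CPM in D2 Sus, a log2 difference of -0.17 ± 0.09 (SE). It fell under 9 of 20 alternatives, with log2 differences from -0.20 to -0.14 over all of them. *Penk*, the enkephalin precursor, had a log2 difference of -0.12 (95% interval -0.29 to 0.06), *Gpr6*, a constitutively active receptor, -0.10 (-0.30 to 0.10), and *Ppp1r1b*, which encodes DARPP-32, -0.15 (-0.32 to 0.02), which fell under 5 of 20 alternatives. D2 Sus 1 was the lowest of the 10 libraries in each of these genes. None of the 7 D2-MSN genes and none of the 16 genes common to all MSNs was called, with medians of -0.08 and -0.09 beside 0.01 over all genes tested, and without D2 Sus 1 the second median was -0.05. Up to 4 of the 16 fell under an alternative, the most in the 10 libraries with the replicate block. The 8 D1-MSN genes had a median of -0.0046 (*Drd1*, -0.10, 95% interval -0.32 to 0.12). In an IP scaled to its own total, a lower level per cell and a larger share of RNA from other cells cannot be told apart.

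*Shisa6*, an AMPA receptor auxiliary protein that the study followed in D1-MSNs, had 8.43, 8.08, 10.6, 9.87 and 10.1 CPM in D2 Con and 10.4, 8.56, 8.35, 10.8 and 9.04 CPM in D2 Sus. The groups overlapped over nearly their whole range, and the 95% interval of the log2 difference was -0.26 to 0.27. In D1 Sus against D1 Con the log2 difference of *Shisa6* was 0.30 ± 0.13 (SE). The difference between these effects was -0.30, which did not pass.

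Counts of called genes in the lists that follow stand beside 2.07% higher and 1.6% lower over all genes tested, and nothing is read from a list with a share near these. Counts of members above or below 0 stand beside 52.7% of all genes tested that lay above 0. Of 25 AMPA and kainate receptor genes 1 fell, *Gsg1l*, an auxiliary subunit that slows recovery of AMPA receptors, from 153 to 181 CPM in D2 Con to 132 to 169 CPM in D2 Sus (log2 -0.17 ± 0.07, SE), a call that was lost without D2 Con 5 and without D2 Sus 1 (log2 to -0.13). Of 24 GABA synapse genes 1 fell, *Gabrd*, the delta subunit of extrasynaptic GABA-A receptors (log2 -0.17 ± 0.07, SE). Its values were 177, 176, 160, 163 and 170 CPM in D2 Con and 132, 145, 166, 164 and 147 CPM in D2 Sus, so that 2 of the D2 Sus libraries reached the range of D2 Con. Its call was lost without D2 Sus 1 (log2 to -0.10 over the alternatives). *Gabrd* also differed by -0.19 (log2) between D2 Res and the same D2 Con libraries, and by -0.21 between D1 Sus and D1 Con. None of 13 NMDA and metabotropic glutamate receptor genes, 21 postsynaptic scaffold genes or 27 calcium and sodium channel genes was called. Both lists with a called subunit had medians within 0.01 of 0.

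Of 42 potassium channel genes 3 rose and 1 fell. *Kcnt2*, a sodium-activated channel, had a log2 difference of 0.38 ± 0.16 (SE), *Kcnc4*, a fast delayed rectifier, 0.35 ± 0.17, and *Kcnip1*, an auxiliary subunit of Kv4 channels, 0.17 ± 0.07. In D2 Res the differences from the same D2 Con libraries were 0.38, 0.10 and 0.12. The gene that fell was *Kcnj4*, an inward rectifier abundant in MSNs (-0.13 ± 0.06), from 294 to 327 CPM in D2 Con to 231 to 311 CPM in D2 Sus. Single libraries decided these calls. That of *Kcnj4* was lost under 6 of 20 alternatives, among them without D2 Con 2, without D2 Sus 1 and in the 10 libraries alone (log2 to -0.05), and that of *Kcnc4* under 10 of 20, of which 7 left out 1 library (log2 down to 0.26). *Kcnt2* lost it without D2 Con 1, D2 Con 5 or D2 Sus 4 (log2 down to 0.32), and *Kcnip1* without D2 Con 4, D2 Con 5 or D2 Sus 2 (log2 down to 0.11). Of 36 vesicle and exocytosis genes *Doc2a* rose and *Syt11*, an inhibitor of vesicle retrieval, fell (-0.10 ± 0.04). Of 41 genes of dopamine and cAMP signalling *Gnb5*, the G protein subunit that partners with RGS9, fell by 0.13 ± 0.06 (SE) on the log2 scale. Of 40 other receptors of modulators *Adra2c*, the alpha-2C adrenoceptor, fell (-0.19 ± 0.09), with D2 Sus 4 at 66.2 CPM above all D2 Con libraries and the other D2 Sus libraries from 43.2 to 57.2 CPM. The call was lost without any 1 of 3 libraries for *Syt11*, 4 for *Gnb5* and 6 for *Adra2c* (log2 to -0.06, -0.10 and -0.08). *Syt11* and *Adra2c* also lost it in the 10 libraries alone.

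Of 44 synaptic adhesion genes 2 rose and 0 fell. *Slitrk1*, a postsynaptic organizer, ran from 45.2 to 50.6 CPM in D2 Con and from 53.7 to 58.7 CPM in D2 Sus without overlap (log2 0.22 ± 0.10, SE), and *Cntnap4* had 0.32 ± 0.15, of which 1 library, D2 Sus 1 at 26.1 CPM, set a large part, since without it the log2 difference was 0.14 and the call was lost. Of 50 axon guidance genes 3 rose, which were *Plxna1*, *Slit1*, a repellent for axons (0.25 ± 0.12), and *Sema4d*, a semaphorin (0.18 ± 0.08), and 1 fell, *Ephb1*, an ephrin receptor (-0.13 ± 0.06). Leaving out any 1 of 7 libraries ended the call of *Slitrk1* or of *Slit1* (log2 down to 0.20 and 0.18), as did any 1 of 5 for *Sema4d* (0.11) and 6 for *Ephb1* (-0.09). Of 40 matrix genes 2 rose, *Col5a1* (0.74 ± 0.27) and *Col1a1* (0.96 ± 0.44), both fibrillar collagens under 1 CPM by D2 Con mean, and 32 of the 40 had a difference above 0, with a median of 0.08. *Col5a1* kept its call under every alternative that tested it, and *Col1a1* lost it under 9 of 19, with the replicate block and without any 1 of 7 libraries among them (log2 down to 0.35). *Pdgfra*, which marks oligodendrocyte precursors and fibroblasts, rose too (0.53 ± 0.25). It ran from 3.54 to 4.97 CPM in D2 Con and from 3.61 to 8.08 CPM in D2 Sus, and its call was lost without any 1 of 6 libraries (log2 down to 0.40).

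Peptides and growth factors gave scattered calls. *Nxph1*, a neurexin ligand, rose (0.20 ± 0.09), whereas *Vgf*, a granin precursor, and *Pomc*, the opiomelanocortin precursor, fell (-0.12 ± 0.06 and -0.81 ± 0.34). *Pomc* is detected here at no more than 21 counts a library. *Ntrk3*, the neurotrophin-3 receptor (-0.12 ± 0.05), *Wnt2* (-0.22 ± 0.09) and *Map2k2*, the ERK kinase MEK2 (-0.13 ± 0.06), were the only calls among 33 neurotrophin and growth factor genes, 31 Wnt genes and 37 genes of AKT, GSK3, mTOR and ERK signalling. None of these 6 calls held with every library left out in turn. It was lost without D2 Con 1 for *Wnt2* (log2 to -0.16), without D2 Con 1 or D2 Sus 3 for *Ntrk3* (-0.10), and without any 1 of 4 libraries for *Nxph1* (0.15) and *Pomc* (-0.71) or of 5 for *Vgf* (-0.07) and *Map2k2* (-0.08). None of the 27 immediate early genes, which report recent neuronal activity, was called (median -0.08), none of 22 glucocorticoid and CRH response genes, none of 19 clock genes and none of 39 chaperone genes. Without D2 Sus 5, 5 immediate early genes fell and their median was -0.22. The summed level of the immediate early genes was the highest in D2 Sus 5 (1945 CPM) and the lowest in D2 Sus 1 (1295 CPM), so the D2 Sus libraries span the 1498 to 1801 CPM of D2 Con.

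All 73 oxidative phosphorylation genes that could be tested had a difference below 0, from -0.24 to -0.01, with a median of -0.11, and 1 was called, *Ndufb8*, a complex I subunit (-0.15 ± 0.07). Their summed level was 11232 CPM in D2 Con 1 and from 9232 to 9850 CPM in the other 4 D2 Con libraries, and D2 Sus ran from 8972 to 9934 CPM. Without D2 Con 1 the median was -0.05, 6 of the 73 lay above 0 and none was called. With the replicate block 11 fell, and 17 in the 10 libraries with the block. Of 77 ribosomal protein genes *Rpl3* and *Rpl13* fell (-0.15 ± 0.07 and -0.12 ± 0.06) and 3 of the 77 lay above 0. Their median was -0.07, and -0.01 without D2 Con 1. D2 Con 1, the library with the excess of short genes, had the highest summed level of both lists. Of 25 cholesterol synthesis genes *Tm7sf2*, a sterol reductase, rose (0.26 ± 0.12), and of 45 chromatin genes *Kdm6a*, an X-linked demethylase of H3K27, rose (0.18 ± 0.07). These calls too were lost with single libraries left out, *Rpl3* without D2 Sus 1 or D2 Sus 5 (log2 to -0.11), *Kdm6a* without D2 Con 1 or D2 Sus 5 (0.10), *Ndufb8* without any 1 of 3 (-0.10), *Rpl13* of 5 (-0.07) and *Tm7sf2* of 6 (0.23).

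All 16 interferon and MHC class I genes that could be tested had a difference above 0, with a median of 0.17. One of them was called, *Ifih1*, the RNA sensor MDA5, at 0 to 0.29 CPM in D2 Con and 0.16 to 0.50 CPM in D2 Sus, which is at most 14 counts. Its call was lost without any 1 of 4 libraries (log2 down to 0.92). The summed level of the list was 60.4 to 70.2 CPM in D2 Con and 67.1 to 76.7 CPM in D2 Sus, so that the groups overlapped. Markers of other cells gave a call each in 2 glial lists. *Gjb6*, an astrocyte connexin, rose (0.64 ± 0.28), as 1 of 8 astrocyte markers, and *Pdgfra* was the 1 of 10 oligodendrocyte markers. As in the interferon list, all 10 oligodendrocyte markers (median 0.13) and 7 of the 8 astrocyte markers (median 0.15) lay above 0. So did 6 of 9 microglia markers and 4 of 8 endothelial markers. The summed astrocyte markers ran from 323 to 431 CPM in D2 Con and from 309 to 542 CPM in D2 Sus, and the summed oligodendrocyte markers from 443 to 542 CPM and from 403 to 657 CPM, in both with the widest spread in D2 Sus. Of 8 endothelial and 10 cholinergic markers none was called. *Pvalb* fell among 11 markers of GABAergic interneurons (-0.59 ± 0.27), and *Camk2n1* among 10 cortical markers (-0.16 ± 0.08), a gene that MSNs also express. Leaving out any 1 of 3 libraries ended the call of *Gjb6* (log2 down to 0.40), 1 of 5 that of *Pvalb* (-0.37) and 1 of 7 that of *Camk2n1* (-0.11). In D2 Con *Gjb6* had 1.34 CPM in the IPs and 22.1 CPM in the inputs, and *Pdgfra* had 4.23 and 70.5 CPM. D2 Res differed from the same D2 Con libraries by 0.68 (log2) in *Gjb6* and 0.56 in *Pdgfra*. The part of other cells in the differences above was not tested.

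*Alas2*, the erythroid enzyme of haem synthesis, was the only erythrocyte marker with enough counts to test. It had 0.16, 0, 0.11, 0 and 0.19 CPM in D2 Con and 0.23, 0.36, 0.68, 0.31 and 1.16 CPM in D2 Sus, at most 4 counts and at most 28 counts a library. Groups did not overlap, with a log2 difference of 2.52 ± 0.65 (SE). The same gene rose in the D2 inputs, from 1.24, 1.21 and 1.27 CPM in Con to 2.00, 5.76 and 7.22 CPM in Sus (log2 2.00). It also rose in D1 Sus against D1 Con (log2 2.34 ± 0.69, SE), and D2 Res differed from the same D2 Con libraries by 1.48 (log2). The 4 haemoglobin genes in the table are listed at 0 in every library and give no check of blood.

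**Figure D4:**
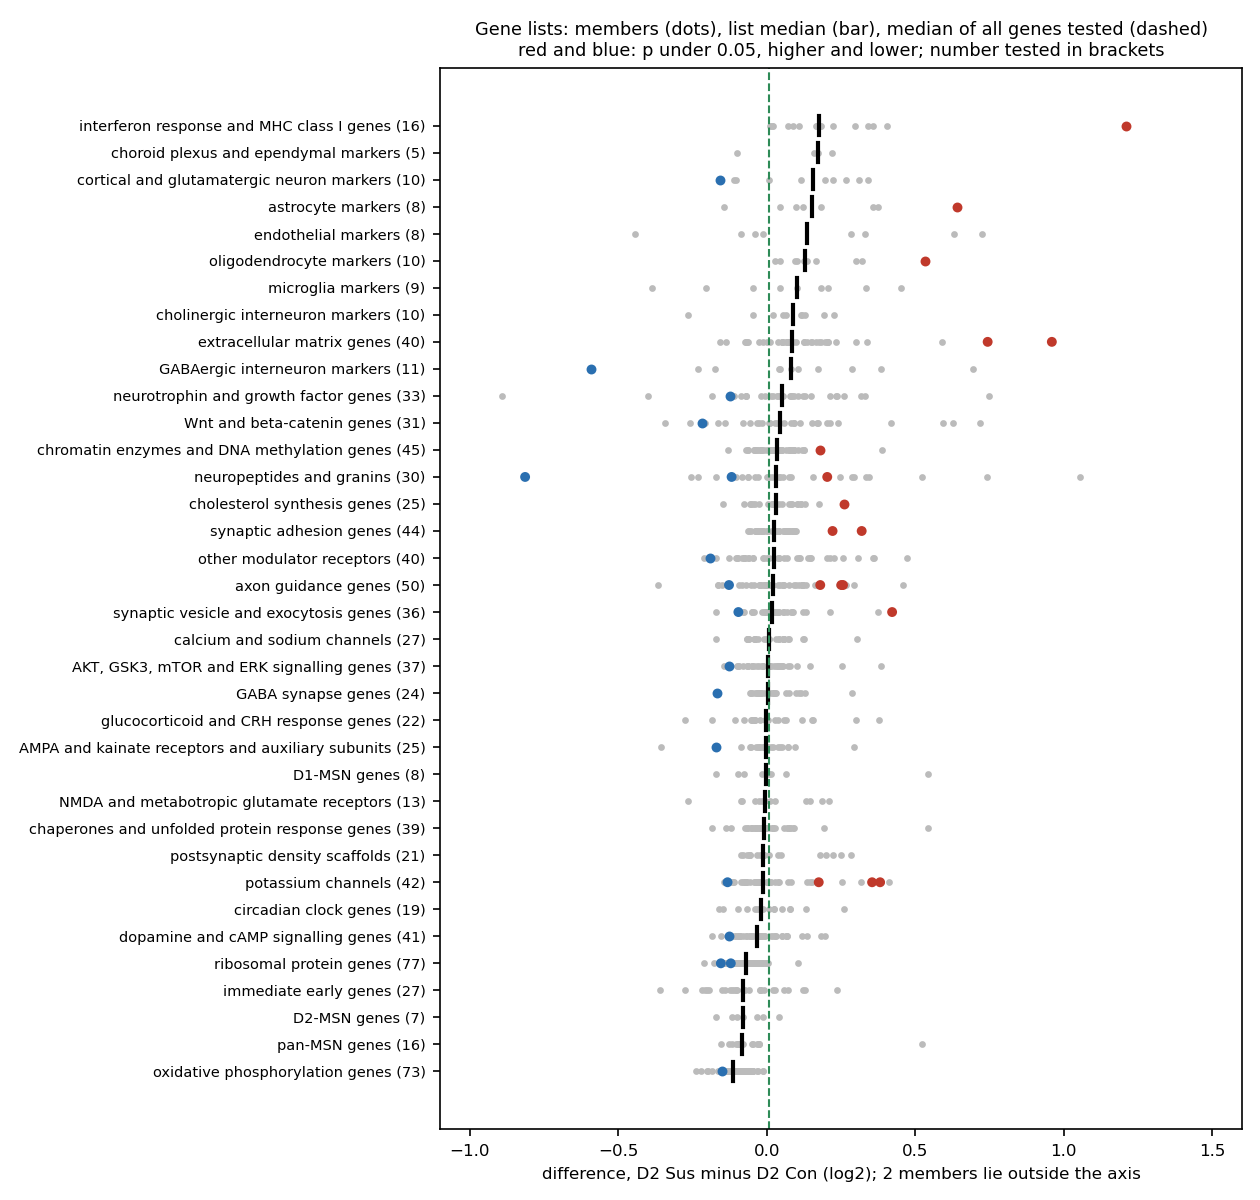
Log2 difference between D2 Sus and D2 Con (horizontal) of the members of 36 gene lists (rows, number tested in brackets), with list medians as bars, the median of all genes as a dashed line, and called members in red and blue; the erythrocyte list, with 1 tested gene, is left out. Medians run from -0.11 for oxidative phosphorylation to 0.17 for interferon genes, and no list has more than 4 called members.

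Genes over 1 CPM with more than 2-fold differences were few, and they were chosen after their values were seen. *Npas1*, a transcription factor of pallidal neurons and interneurons, had 0.56 to 1.23 CPM in D2 Con and 1.11 to 4.57 CPM in D2 Sus with the top value in D2 Sus 1. *Spp1*, osteopontin, had 0.61 to 3.09 CPM in D2 Con and 0.24 to 0.87 CPM in D2 Sus. *Lars2*, the mitochondrial leucyl-tRNA synthetase, had 1004, 6054, 679, 775 and 1548 CPM in D2 Con and 1511, 775, 498, 635 and 1102 CPM in D2 Sus. For *Lars2* a single library, D2 Con 2, held several times the level of every other, and without it the log2 difference was -0.16 and the call was lost, as it was without D2 Sus 2, D2 Sus 3 or D2 Sus 4. The call of *Npas1* was lost without D2 Sus 1 (log2 0.58), and that of *Spp1* without D2 Con 2 (log2 -0.78).

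Several neighbouring zinc-finger genes on chromosome 2 rose. In the window from *Gm14305* to *Zfp931* (GRCm38, chr2:176708328-178078476) 9 genes could be tested, 5 rose (*Zfp970*, *Gm14403*, *Gm14322*, *Gm14326* and *Zfp971*), 0 fell and the median log2 difference was 0.69. The window was chosen after its values were seen and has no test of its own. These genes belong to the KRAB zinc-finger family, whose proteins bind DNA and in many cases silence retroelements, and which grew by tandem duplication. The bases from 150 to 51 before the annotated start are shown for the 5 that rose and for *Zfp931*, which was not called, to show how alike these copies are. The sequences are from RefSeq (GRCm38.p6), 5′ to 3′ on the strand of each gene, with the letters CCAAT in capitals.
Zfp970: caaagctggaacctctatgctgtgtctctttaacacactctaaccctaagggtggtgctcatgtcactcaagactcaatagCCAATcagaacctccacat
Gm14403: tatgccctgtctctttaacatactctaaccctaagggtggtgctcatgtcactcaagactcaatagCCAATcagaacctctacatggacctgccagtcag
Gm14322: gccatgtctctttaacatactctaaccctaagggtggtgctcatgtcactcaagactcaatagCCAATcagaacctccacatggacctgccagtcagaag
Gm14326: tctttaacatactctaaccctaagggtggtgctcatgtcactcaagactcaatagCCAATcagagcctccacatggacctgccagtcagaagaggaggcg
Zfp971: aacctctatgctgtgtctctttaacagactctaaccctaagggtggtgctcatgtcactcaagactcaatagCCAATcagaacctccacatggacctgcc
Zfp931: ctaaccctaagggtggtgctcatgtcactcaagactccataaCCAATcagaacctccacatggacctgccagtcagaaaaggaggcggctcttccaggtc

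The windows lie at chr2:177464592-177464691 (+), chr2:177498076-177498175 (+), chr2:177759138-177759237 (+), chr2:177957339-177957438 (-), chr2:178023134-178023233 (+) and chr2:178078476-178078575 (-), in the order shown. Over the 250 bases before the start, *Zfp970* shared from 94.6% (*Gm14326*) to 97.5% (*Zfp971*) of aligned bases with the others, and 94.8% with *Zfp931*. CCAAT or its reverse complement ATTGG is in 18.1% of all windows of this length and position, and it is in all 6 of these. Since the 6 are near copies of each other, with the uncalled *Zfp931* among them, they are not separate observations. Transcripts are less alike for some members. The share of 100-base stretches that also occur in a transcript of another gene was 17.4% for *Zfp970*, 22.1% for *Zfp971*, 4.9% for *Gm14403*, 6.9% for *Zfp931*, 61.6% for *Gm14326* and 72.8% for *Gm14322*. Counts of the last 2 are therefore uncertain, since reads of near-identical copies can be split or dropped.

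*Zfp970* had 9.38, 12.4, 10.6, 16.4 and 9.74 CPM in D2 Con and 13.1, 12.7, 19.4, 23.7 and 26.3 CPM in D2 Sus (log2 0.69 ± 0.20, SE, 95% interval 0.28 to 1.11). *Zfp971* had 4.01, 6.27, 6.65, 10.5 and 4.48 CPM in D2 Con and 6.86, 8.03, 11.4, 14.7 and 13.0 CPM in D2 Sus (log2 0.75 ± 0.24, SE). In both genes D2 Sus 1 and D2 Sus 2 lay within the range of D2 Con, while D2 Sus 3, 4 and 5 lay above it. *Gm14403* had a log2 difference of 0.84 ± 0.31 (SE), and its call was lost without D2 Sus 5 (log2 0.62). *Zfp931*, at the end of the run, ran from 2.10 to 3.34 CPM in D2 Con and from 2.32 to 3.02 CPM in D2 Sus (95% interval -0.32 to 0.31).

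The D2 Res libraries, which share the D2 Con libraries as controls, had *Zfp970* at 19.2 to 27.3 CPM and *Zfp971* at 10.1 to 15.4 CPM, log2 differences of 0.95 and 0.94 from D2 Con. D1 Con had *Zfp970* at 11.2 to 16.3 CPM and D1 Sus at 10.8 to 22.6 CPM (log2 0.29). In the D2 inputs *Zfp970* had 9.19, 10.3 and 17.6 CPM in Con and 12.2, 20.2 and 22.5 CPM in Sus (log2 0.55), and *Zfp971* had a log2 difference of 0.61. Over the whole genome 358 genes with symbols of Zfp and a number could be tested, of which 16 rose and 1 fell, a set that was also chosen after its values were seen. Their median log2 difference was 0.03.

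**Figure D5:**
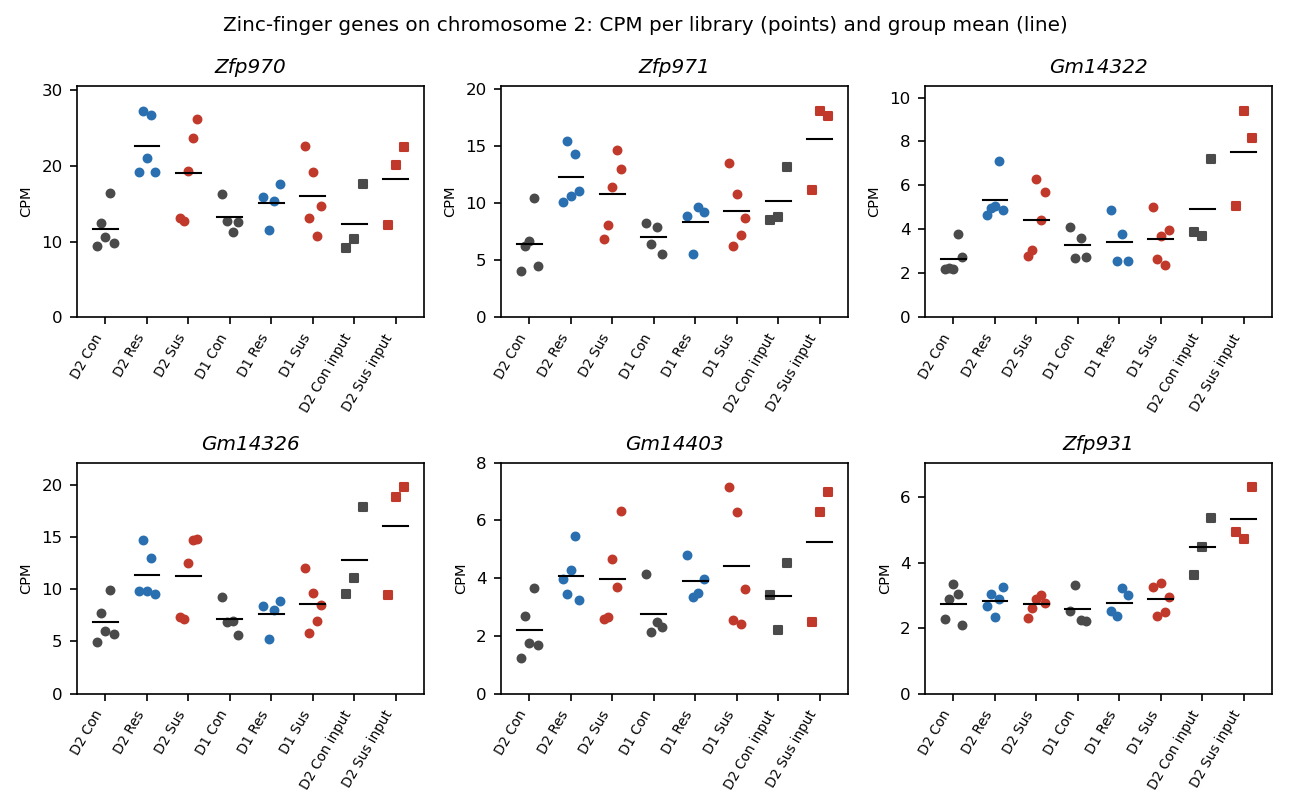
Level in CPM (vertical, from 0) of 6 zinc-finger genes of the chromosome 2 window in each D2 and D1 IP library (circles) and each D2 input library of Con and Sus (squares), with group means as lines. In the 5 genes that rose, the D2 Con mean is the lowest of the IP groups, and *Zfp931* stays between 2.10 and 3.36 CPM in all 28 IP libraries.

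Whether the Sus effect differed between D2-MSNs and D1-MSNs was tested as a contrast of both effects, which share no library. In edgeR's quasi-likelihood test 0 genes passed an adjusted p under 0.05, and 259 of 14224 genes (1.82%) passed an unadjusted p under 0.05 (240 in DESeq2), 160 with the higher effect in D2 and 99 with the lower. *Syk* had the smallest p, with a log2 difference of 1.36 in D2 and -0.09 in D1 (difference 1.45, adjusted p = 1.00). *Hydin* was next among the higher ones (1.37 in D2, -0.19 in D1, difference 1.55). On the lower side were *Sema4c*, a semaphorin (-0.23 and 0.16, difference -0.39), *Cth*, the cystathionine lyase that makes cysteine (-0.60 and 0.42, difference -1.02), and *Nkiras2*, a Ras-like inhibitor of NF-kappa-B signalling (-0.16 and 0.28, difference -0.44). These 5 genes were chosen by the smallest p of this contrast, so their signs are a description.

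The D2 inputs, 3 libraries of Sus and 3 of Con, gave 412 of 15063 genes at an unadjusted p under 0.05 (2.74%), 234 higher and 178 lower, and 0 at an adjusted p under 0.05 (edgeR's quasi-likelihood test; DESeq2 also gave 0, with 347 at an unadjusted p under 0.05). Of the genes named above, *Sdk1* was also higher in the Sus inputs (10.8, 10.8 and 9.54 CPM in Con, 13.9, 13.7 and 10.4 CPM in Sus, log2 0.29), and *Gm15867* (log2 -0.94) and *Rpl3* (log2 -0.26) were also lower. *Rpl3* had 383, 361 and 365 CPM in the Con inputs and 307, 301 and 317 CPM in the Sus inputs, without overlap. *Cox20* and *Hydin*, which were named because their IP values did not overlap, had input differences of 0.04 ± 0.13 and -0.05 ± 0.37 (log2, SE).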

How the data were processed

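Members, lists and comparisons were chosen with earlier results of these data known. Libraries were poly-A selected and stranded, and the authors used cutadapt for trimming, STAR for alignment to mm10 and HTSeq for counting (submitters' processing notes and methods; versions, annotation and strand setting not given in the sources used here). The deposited values are raw counts per gene symbol and library. Samples were grouped by their titles, and 2 columns with no matching sample were left out.

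The counts were normalized by TMM, expressed as CPM, and tested by the quasi-likelihood method of edgeR 4.0.16 (R 4.3.3). Genes passing filterByExpr (minimum count 10, minimum total 15) were fitted with 6 group means, 14224 genes over 28 IPs and 15063 over 18 inputs. P-values were adjusted by Benjamini-Hochberg, the call threshold, an unadjusted p below 0.05, follows the study, and 95% intervals follow from the standard errors. The 37 gene lists hold 1016 entries. The rule for named genes took up to 12 genes per direction with p under 0.05, a mean of at least 1 CPM in a group and no overlap, every gene with adjusted p under 0.05 (none), up to 4 called members of each list, 7 genes always, and the 3 smallest p per direction of the D2 and D1 contrast, of which 1 gene is not reported here. *Npas1*, *Spp1*, *Lars2*, *Avp* and the chromosome 2 zinc-finger genes were chosen after their values were seen. Gene positions and exon lengths came from GENCODE vM21 (GRCm38, the assembly called mm10) by symbol, with lengths for 98.6% of tested genes. Alternatives were RLE factors, other filters, DESeq2 1.42.0, fewer libraries, the replicate block and each library left out. Programs were tested on simulated counts. The self-test is not quoted.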

Additional observations from a re-analysis of the deposited data

Results flagged for a closer look

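In 166 sets of 5 values, a library lay farther from the rest than Dixon's 95% limit in 14, where about 1 set in 20 is flagged by chance. In D2 Sus these were *Hydin* (1.77 CPM in D2 Sus 5), *Col16a1* (7.06 CPM in D2 Sus 2), *Plxna1* (68.1 CPM in D2 Sus 1), *Mks1* (5 CPM in D2 Sus 3), *Cntnap4* (26.1 CPM in D2 Sus 1) and *Nkiras2* (6.31 CPM in D2 Sus 5). In D2 Con they were *Ten1* and *Kcnc4* (17.7 and 17.6 CPM in D2 Con 3), *Tm7sf2* (6.27 CPM in D2 Con 4), *Lars2* (6050 CPM in D2 Con 2, where the next library had 1550 CPM), and 4 genes in D2 Con 1, which were *Gnb5* (473 CPM), *Syt11* (1310 CPM), *Ndufb8* (95 CPM) and *Kdm6a* (21.5 CPM, the only one of the 4 where D2 Con 1 was low). D2 Con 1 is the library with the excess of short genes.

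The Sus effect differed between D2-MSNs and D1-MSNs at an unadjusted p under 0.05 in 13 of the 80 named genes, and at an adjusted p under 0.05 in none (edgeR's quasi-likelihood test, adjusted p = 1.00 for each). Most named genes were chosen for their D2 difference, which is part of this contrast, and 5 for the contrast itself, so the count is a description and is no test beside the 259 of 14224 genes (1.82%) over the whole table. The unadjusted p values of the 5 genes of that contrast in the report were 5.4e-04 for *Syk*, 0.0021 for *Hydin*, 0.0012 for *Sema4c*, 0.0039 for *Cth* and 0.0049 for *Nkiras2*. For the others they were 0.036 for *Nid2* and for *Ddah2*, 0.043 for *Ccdc87*, 0.030 for *Fkbp14*, 0.021 for *Ssr4*, 0.031 for *Gm15867*, 0.016 for *Kcnip1* and 0.048 for *Spp1*.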

How the results depend on the processing

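The count between D2 Sus and D2 Con (523) stayed within 1.5 times under RLE factors, both filters, DESeq2 and fewer libraries, was 0 with adjusted p, and 340 without both D2 Sus 1 and D2 Sus 5, an alternative added after the data were seen. Single libraries left out gave 373 (D2 Con 1) to 682 (D2 Con 3). No alternative gave a gene at an adjusted p under 0.05. The D2 and D1 contrast (259) gave 453 with all genes, 172 with the stricter filter, and 218 to 427 with a library left out, the highest without D2 Sus 5. The input count (412) was 233 in the 6 libraries alone and 378 to 817 with a library left out, the highest without D2 Sus input 3. The replicate block, with no pairing known, gave 711 calls (627 in the 10 libraries alone), 345 and 407. Residuals of same-numbered D2 Con and D2 Sus libraries correlated at 0.06 to 0.31, over 0.1 in 3 of 5 pairs. Of the 68 called named genes 21 kept the call under every alternative that tested them. In the 10 libraries alone *Kcnip1*, *Kcnj4*, *Nxph1*, *Vgf*, *Adra2c*, *Syt11*, *Cntnap4*, *Sema4d*, *Map2k2*, *Rpl13* and *Gjb6* lost theirs. Signs turned only in uncalled values: the difference in share of reads on no feature (-0.269, and -1.25 to 0.429 percentage points with a library left out), *Drd2* (-0.0759 to 0.00662, the highest without D2 Sus 1), *Shisa6* (-0.0545 to 0.0476, with -0.00153 over all genes, -0.00228 in the 15 D2 IPs and -0.0327 without both D2 Sus 1 and D2 Sus 5) and *Zfp931* (-0.0917 to 0.0794, with 0.00812 in the 10 libraries with the replicate block and 0.0577 without both). With the block, 11 oxidative phosphorylation genes fell in place of 1 (17 in the 10 libraries alone). The causes were not tested. Genes under 1 CPM rest on few counts at this depth.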
